A study of Homo sapiens with 6 samples.

Results

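Expression of 10 genes that detect foreign or misplaced nucleic acid, or relay that detection, was described in the colorectal cancer cell line HCT116 and in DKO1, a line derived from it. The genes are the RNA sensors RIGI, IFIH1, DHX58 and TLR3, the adaptor MAVS, the DNA sensing enzyme CGAS and its adaptor STING1, the sensors IFI16 and AIM2, and ZBP1. They were taken from a deposited table of 57820 human genes by Ensembl identifier, under current or older symbols (RIGI was DDX58, CGAS was MB21D1 and STING1 was TMEM173), and all 10 were found. There were 6 RNA samples, of which 3 were parental HCT116 (called WT) and 3 were DKO1, in which the DNA methyltransferase genes DNMT1 and DNMT3B were knocked out. Both lines grew in McCoy's 5A medium with serum, with no other agent named in the labels. DKO1 is 1 derived line compared with its parent, so loss of the methyltransferases cannot be told apart from any other difference between the lines. The labels number the replicates without saying whether cultures were separate. The spread that the p-values rest on may therefore be technical.

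RIGI (RIG-I), IFIH1 (MDA5) and DHX58 (LGP2) form the RIG-I-like receptor family of cytosolic helicases that bind double-stranded RNA. RIGI and IFIH1 signal through MAVS on the mitochondrial surface, while DHX58 lacks the signalling domains and modulates the other two. TLR3 detects double-stranded RNA inside endosomes and signals through another adaptor, TICAM1. CGAS makes the messenger cGAMP on binding DNA, and cGAMP activates STING1 on the endoplasmic reticulum. Both adaptors activate the kinase TBK1 and the transcription factor IRF3, which turn on interferon genes, and interferon in turn raises transcription of several of the sensors through interferon-stimulated response elements. IFI16 and AIM2 belong to the PYHIN family of DNA-binding proteins, and AIM2 assembles an inflammasome with PYCARD and CASP1. ZBP1 binds Z-form RNA or DNA and can start necroptosis through RIPK3 and MLKL. In tumour cells treated with inhibitors of DNA methylation, double-stranded RNA from endogenous repeats is known to reach the RNA sensors.

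Promoter windows were examined because the genes disrupted in DKO1 encode enzymes that methylate CpG sites and because several of these genes moved together. RefSeq windows on GRCh38.p14, from 250 bases before to 50 bases after an annotated start, were at hand for 6 of the 10 members (IFI16 has 2). The 250 bases before the start are shown for the 2 RNA sensors with the highest level in DKO1, for AIM2, whose window also held the searched motif, and for the adaptor MAVS, which was not called. Capitals mark matches to the core of the interferon-stimulated response element, which is GAAA, any 2 bases and GAAA again, on either strand.
IFIH1, chr2:162318685-162318934, minus strand: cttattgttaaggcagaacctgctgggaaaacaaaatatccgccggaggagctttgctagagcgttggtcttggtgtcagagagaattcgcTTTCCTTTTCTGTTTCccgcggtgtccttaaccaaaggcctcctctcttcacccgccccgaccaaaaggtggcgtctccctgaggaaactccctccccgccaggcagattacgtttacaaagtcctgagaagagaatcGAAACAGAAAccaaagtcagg
RIGI, chr9:32526197-32526446, minus strand: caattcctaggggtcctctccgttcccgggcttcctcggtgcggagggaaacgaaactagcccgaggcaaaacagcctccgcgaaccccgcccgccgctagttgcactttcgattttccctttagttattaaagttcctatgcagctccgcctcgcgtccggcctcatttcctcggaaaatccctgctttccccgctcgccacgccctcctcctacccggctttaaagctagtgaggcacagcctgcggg
AIM2, chr1:159076767-159077016, minus strand: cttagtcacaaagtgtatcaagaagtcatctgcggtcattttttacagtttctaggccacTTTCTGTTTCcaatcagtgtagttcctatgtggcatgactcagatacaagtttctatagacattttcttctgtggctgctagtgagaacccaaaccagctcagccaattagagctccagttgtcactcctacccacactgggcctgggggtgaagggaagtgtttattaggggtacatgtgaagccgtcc
MAVS, chr20:3846584-3846833, plus strand: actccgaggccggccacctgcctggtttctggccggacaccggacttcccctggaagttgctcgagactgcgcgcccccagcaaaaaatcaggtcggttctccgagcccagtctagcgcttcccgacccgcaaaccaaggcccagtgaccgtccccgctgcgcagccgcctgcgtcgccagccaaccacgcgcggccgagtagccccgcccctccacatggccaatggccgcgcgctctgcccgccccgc

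IFIH1 held 3 matches to the core, starting 159, 153 and 21 bases upstream of the start, and the first 2 of these share 4 bases. AIM2 held 1 match, 190 bases upstream, and TLR3 held 1 that begins 4 bases upstream and runs across the start. RIGI, MAVS and both IFI16 windows held none. The same core was present in 3.57% of the 35116 promoter windows of the table, counting either strand. The palindromic motif TTCNNNGAA, bound by STAT dimers, was matched 2 times in the TLR3 window and in no other member's window, against 7.66% of all windows with a match. A match is only a run of letters and not a measured binding site. Only the exact spacing of each motif was searched, so a window without a match may still hold a variant of it.

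The windows of the members ranged from 1 to 34 CpG dinucleotides. The MAVS window held 34 CpG dinucleotides and the RIGI window 27, more than in 84.4% and 71.8% of all windows. IFIH1 held 12, near the median of 14. TLR3 held 5, the IFI16 windows 1 and 3, and AIM2 held 2, against a first quartile of 4 over all windows. The observed to expected CpG ratio was 1.02 for RIGI, 0.913 for MAVS and 0.63 for IFIH1, and 0.418 or less in the TLR3, IFI16 and AIM2 windows. The CpG-rich windows belonged to RIGI, which was called higher in DKO1, and to MAVS, which was not. IFIH1, also called higher, had a window near the median. IFI16, called higher but entering the test through its DKO1 values alone, had CpG-poor windows. Whether CpG content goes with the change was not tested. Methylation was not measured in the table used here.

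**Figure D1:**
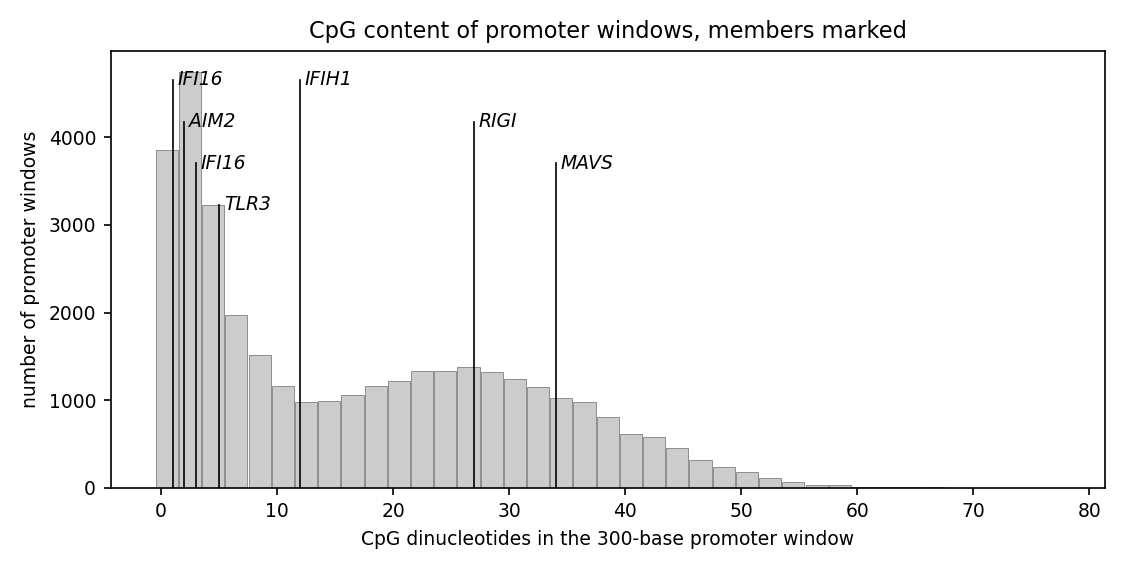
Number of RefSeq promoter windows of 300 bases (y axis) by the number of CpG dinucleotides in each (x axis), with vertical lines at the windows of the 6 members that had one. RIGI (27) and MAVS (34) lie in the CpG-rich part and IFI16 (1 and 3), AIM2 (2) and TLR3 (5) in the CpG-poor part.

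Values are TPM, a transcript abundance scaled to a fixed total per sample and corrected for gene length, so that levels of different genes can be set side by side. TPM has no record of sequencing depth, so no counting error is given, and a listed 0 can be an estimate below the rounding. In the targeted genes, DNMT1 lay at 231.01 to 249.97 TPM in WT and at 30.81 to 46.82 TPM in DKO1, and DNMT3B at 6.77 to 8.22 and 3.56 to 4.86 TPM. A total per gene does not show whether transcripts carry the disrupted sequence. Mitochondrial transcripts took 19.7% to 20.1% of the TPM in WT and 21.2% to 27.7% in DKO1. Among 10 colorectal epithelial markers, 7 had a mean of at least 1 TPM in WT and 6 in DKO1, and their summed level was 942 to 1180 TPM in WT and 700 to 930 TPM in DKO1, lower without overlap. EPCAM, KRT8 and KRT18 led the sum, and KRT8 (mean 382 and 219 TPM) lay below WT in every DKO1 sample and was not called. CDH1 was called higher (mean 2.97 and 9.82 TPM, limma adjusted p = 0.000418) and CDX2 lower (1.31 and 0.643 TPM, adjusted p = 0.026), while CDX1 was listed at 0 in WT and LGALS4 in DKO1. The summed level of 14 blood cell markers was 4.11 to 5.35 TPM in WT and 11.3 to 14.6 TPM in DKO1. Of these, CD3D, LYZ, CD4 and CD8A had a mean of at least 1 TPM in DKO1 (CD4 and CD8A also in WT), PTPRC was at 0 in every WT sample and at 0.43, 0.51 and 0.61 TPM in DKO1, and SPI1 was at 0 in all 6 samples. For 9 fibroblast and endothelial markers the sums were 1.41 to 1.92 and 3.41 to 3.86 TPM. The part of these markers in the results below was not tested.

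The cytosolic RNA sensors were higher in DKO1, and the adaptors were not called. RIGI, IFIH1 and DHX58 reached 7.24 to 10.2 times their WT level, CGAS and IFI16 went from below 1 TPM to above it, and the samples of the lines overlapped for MAVS and STING1. In such bulk samples a change in the number of cells that express a gene and a change in RNA per cell cannot be told apart. The test was limma on log2(TPM + 1), with genotype as the only term and Benjamini-Hochberg adjustment over the 13604 human genes that had at least 1 TPM in at least 3 samples, and a call needed an adjusted p under 0.05. Of the 10 members 7 entered the test, 5 were called higher and 0 lower, beside 18.8% of all tested genes called higher, 9.6% called lower and 28.4% called in either direction. All 5 that were called had DKO1 samples above every WT sample, beside 27.5% of tested genes, and no tested member lay wholly below WT, beside 17.8%. DHX58, CGAS and IFI16 entered through their DKO1 values alone, with every DKO1 sample at 1 TPM or more and every WT sample below it. For these 3 the lack of overlap was therefore fixed by the entry rule, and only for RIGI and IFIH1 was it open. Of 1063 tested genes below 1 TPM in every WT sample, 96.2% were called higher, so a call was close to given for these 3 by the entry rule. RIGI, IFIH1, MAVS and STING1 passed 1 TPM in all 6 samples. The median log2 fold change was 2.10 for the 7 tested members, which is the value of DHX58, 1.2 for the 4 that passed 1 TPM in all samples and 0.07 for all tested genes. Of all calls 66.2% were higher, a share that was 49.8% with TPM rescaled by median ratios, 48.4% after quantile normalization and 75.1% when mitochondrial and spike-in rows were left out. Those scalings moved the median of all tested genes by −0.13, −0.14 and 0.10 on the log2 scale, while RIGI, IFIH1, DHX58 and IFI16 were called higher in each.

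**Figure D2:**
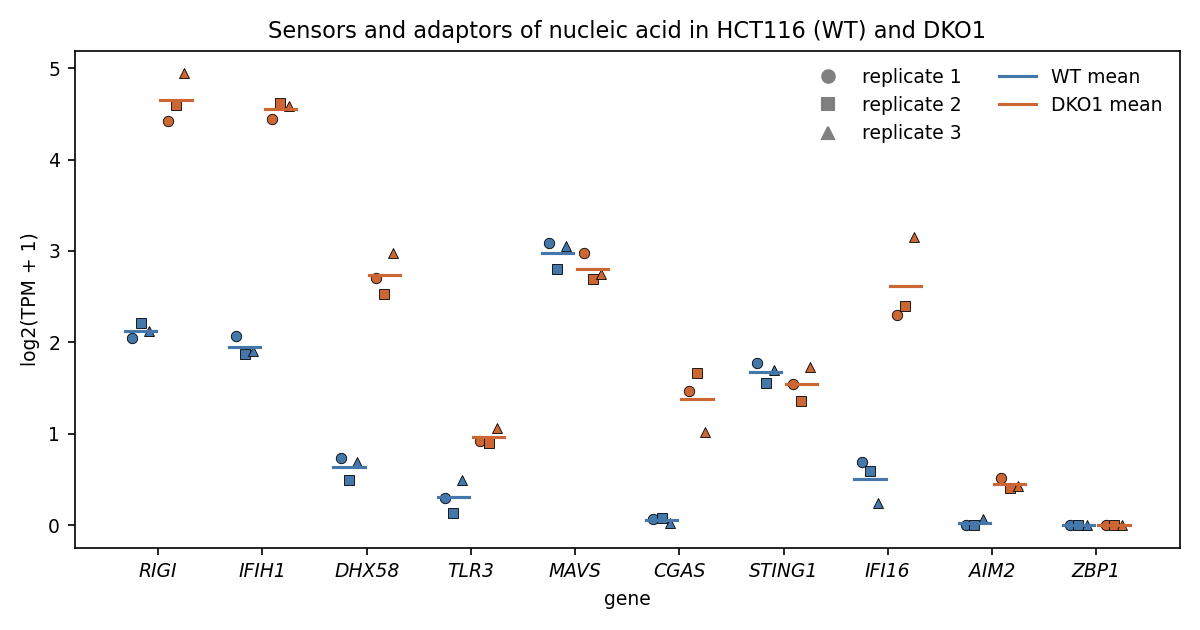
Level of each of the 10 genes in every sample as log2(TPM + 1) (y axis), with WT in blue, DKO1 in orange, marker shape for the replicate number and a bar at the group mean. RIGI and IFIH1 move from near 2 to above 4, MAVS and STING1 overlap between the lines, and ZBP1 is at 0 throughout.

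RIGI (ENSG00000107201.5, chromosome 9), which recognises RNA with a 5′ triphosphate, was at 3.15, 3.63 and 3.36 TPM in WT replicates 1, 2 and 3 and at 20.41, 23.28 and 29.75 TPM in the DKO1 replicates. The DKO1 samples were all far above WT, with replicate 3 the highest. The means were 3.38 ± 0.241 and 24.5 ± 4.78 TPM (SD, n = 3 each), a 7.24-fold rise (log2 fold change 2.53, SE 0.17, limma adjusted p = 5.33e-05). IFIH1 (ENSG00000115267.5, chromosome 2), which binds long double-stranded RNA, was at 3.21, 2.67 and 2.76 TPM in WT and at 20.8, 23.51 and 22.93 TPM in DKO1. Here the DKO1 samples lay close together in the deposited scaling, with a coefficient of variation of 6.37% against 19.5% for RIGI. In WT the order was the reverse, at 10% for IFIH1 and 7.12% for RIGI. The DKO1 libraries differed in scale, with median-ratio size factors (the divisors of that rescaling) of 1.03, 0.962 and 1.18 for replicates 1, 2 and 3. Under median-ratio scaling the SE of the log2 fold change was 0.17 for both genes. IFIH1 rose 7.78-fold, from 2.88 ± 0.289 to 22.4 ± 1.43 TPM (log2 fold change 2.59, SE 0.14, limma adjusted p = 2.21e-05). The 95% intervals of the log2 fold changes, 2.12 to 2.93 for RIGI and 2.26 to 2.93 for IFIH1, covered almost the same range. The ratio of RIGI to IFIH1 was 0.981 to 1.36 in WT and 0.981 to 1.3 in DKO1, so the balance between these sensors overlapped between the lines.

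DHX58 (ENSG00000108771.8, chromosome 17) was scarcer than its relatives in both lines. It was at 0.66, 0.41 and 0.62 TPM in WT and at 5.53, 4.77 and 6.87 TPM in DKO1, with no overlap. The rise was 10.2-fold, from 0.563 ± 0.134 to 5.72 ± 1.06 TPM (log2 fold change 2.10, SE 0.17, limma adjusted p = 0.000115). The fold is larger than that of RIGI and IFIH1 while the log2 fold change is smaller, since adding 1 TPM before the logarithm compresses genes with low values. With 0.1 TPM added instead, the log2 fold changes were 3.14 for DHX58, 2.92 for IFIH1 and 2.80 for RIGI. TLR3 (ENSG00000164342.8, chromosome 4), the endosomal sensor, stayed near or below 1 TPM. It was at 0.23, 0.1 and 0.41 TPM in WT and at 0.9, 0.87 and 1.09 TPM in DKO1, all DKO1 samples being above WT. Only 1 sample reached 1 TPM, so TLR3 was outside the main test.

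MAVS (ENSG00000088888.13, chromosome 20), the adaptor that RIGI and IFIH1 share, was at 7.5, 5.98 and 7.3 TPM in WT and at 6.9, 5.46 and 5.73 TPM in DKO1. The groups overlapped, and replicate 2 was the lowest in each line. Replicate 2 also had the smallest median-ratio size factor of each line, at 0.92 in WT and 0.962 in DKO1. The log2 fold change was −0.17 with a 95% interval of −0.55 to 0.21 (limma adjusted p = 0.471), an interval that does not reach the changes measured for RIGI and IFIH1. In WT, MAVS was the most abundant of the 10 members, and it made up 39.1% to 43.1% of their summed TPM. In DKO1 that share was 7.35% to 11%. The summed TPM of RIGI, IFIH1 and DHX58 was 0.923 to 1.12 times that of MAVS in WT samples and 6.77, 9.44 and 10.4 times in DKO1 replicates 1, 2 and 3. Transcripts of the helicases and of their adaptor were thus near parity in WT and far from it in every DKO1 sample.

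**Figure D3:**
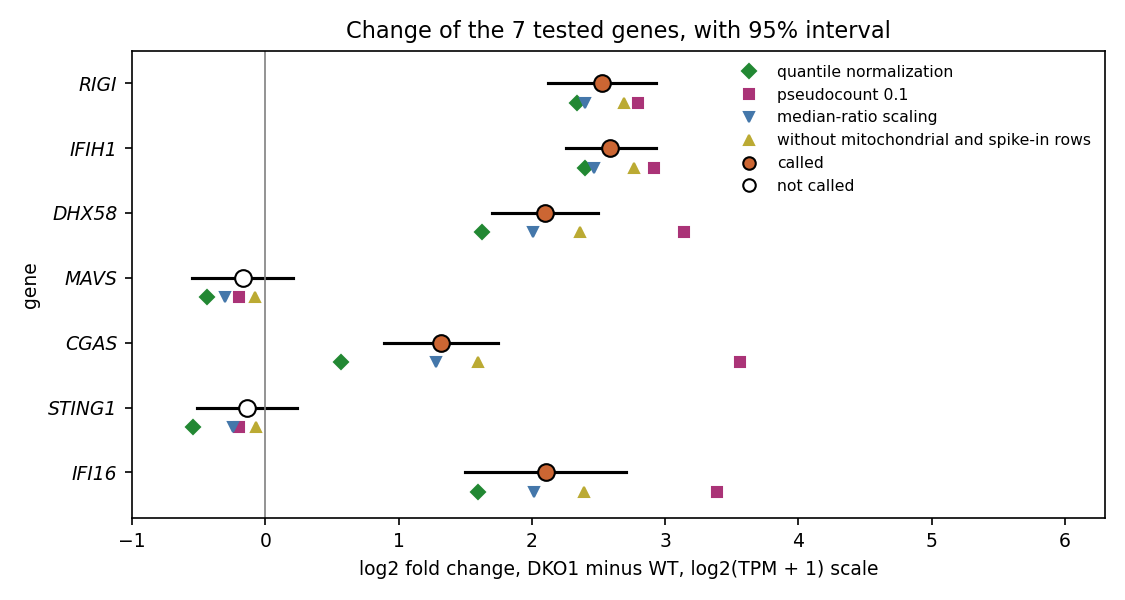
Log2 fold change of the 7 tested members, DKO1 minus WT on the log2(TPM + 1) scale (x axis), as circles with 95% intervals from limma, filled where called. Small symbols under each gene give the value with 0.1 TPM added or with another scaling. RIGI and IFIH1 stay between 2.34 and 2.92, and CGAS runs from 0.57 to 3.56.

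In the DNA sensing branch the enzyme rose and its adaptor was not called. CGAS (ENSG00000164430.11, chromosome 6) was at 0.05, 0.06 and 0.02 TPM in WT and at 1.77, 2.16 and 1.02 TPM in DKO1. It was close to silent in every WT sample and low in every DKO1 sample, with replicate 3 the lowest of these. The means were 0.0433 ± 0.0208 and 1.65 ± 0.579 TPM (log2 fold change 1.32, SE 0.18, limma adjusted p = 0.00153). Quantile normalization ended this call (log2 fold change 0.57, adjusted p = 0.181), and the other 12 alternatives that gave CGAS a value kept it, with adjusted p from 0.000222 over the whole set. CGAS overlaps DDX43, a helicase gene on the opposite strand, in GENCODE 29 gene models, where 180 of 4155 exonic bases of CGAS (4.33%) are shared. DDX43 went from 0.07 ± 0.052 to 7.61 ± 1.41 TPM. The sources used here do not say whether reads were assigned by strand. A share of the CGAS value may be DDX43 reads, and this was not tested.

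STING1 (ENSG00000184584.8, chromosome 5) was at 2.43, 1.95 and 2.25 TPM in WT and at 1.91, 1.57 and 2.32 TPM in DKO1. The groups overlapped, and replicate 2 was again the lowest in each line. The log2 fold change was −0.14 with a 95% interval of −0.51 to 0.24 (limma adjusted p = 0.568). Under quantile normalization STING1 was called lower, at −0.54 (adjusted p = 0.0351, with 0.0351 to 0.848 over all alternatives). That scaling moved the median of all tested genes by −0.14, and relative to that median STING1 lay at −0.47, against −0.21 in the deposited scaling. The ratio of CGAS to STING1 was 0.00889 to 0.0308 in WT and 0.44 to 1.38 in DKO1, so that in DKO1 replicate 2 the enzyme exceeded the adaptor.

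IFI16 (ENSG00000163565.14, chromosome 1), a nuclear DNA sensor, was at 0.62, 0.51 and 0.18 TPM in WT and at 3.91, 4.29 and 7.9 TPM in DKO1. All DKO1 samples were above WT, and replicate 3 was well above the other two. The means were 0.437 ± 0.229 and 5.37 ± 2.2 TPM (log2 fold change 2.11, SE 0.26, limma adjusted p = 0.00081). Its standard error was the largest among the 7 tested members. AIM2 (ENSG00000163568.9), also on chromosome 1, was listed at 0, 0 and 0.05 TPM in WT and at 0.43, 0.33 and 0.35 TPM in DKO1. AIM2 was therefore above WT in every DKO1 sample while staying at or below 0.43 TPM. The other PYHIN genes, PYHIN1 and MNDA, did not exceed 0.06 TPM in any sample. ZBP1 (ENSG00000124256.10, chromosome 20) was listed at 0 in all 6 samples.

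TLR3 and AIM2 entered a fit without the entry rule, over the 29487 genes above 0 in any sample. Both were called higher there, TLR3 with a log2 fold change of 0.65 (limma adjusted p = 0.0162) and AIM2 with 0.43 (adjusted p = 0.00238), so that 7 of the 9 members with any value were higher. In that fit 14.9% of genes were called higher and 3.72% lower.

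The order of the members by mean level changed between the lines. In WT it ran MAVS, RIGI, IFIH1, STING1, DHX58, IFI16, TLR3, CGAS, AIM2 and ZBP1. The sample ranges of neighbours overlapped for RIGI and IFIH1, for DHX58 and IFI16, for IFI16 and TLR3, for CGAS and AIM2 and for AIM2 and ZBP1. In DKO1 it ran RIGI, IFIH1, MAVS, DHX58, IFI16, STING1, CGAS, TLR3, AIM2 and ZBP1. There RIGI and IFIH1 overlapped, as did MAVS with DHX58, DHX58 with IFI16, STING1 with CGAS and CGAS with TLR3. RIGI and IFIH1 moved from above 30% and 27.2% of the tested genes in WT to above 65% and 62.9% in DKO1, and MAVS from above 42.3% to above 35.3%. Of the tested genes 1063 were below 1 TPM in every WT sample and entered through DKO1, which fills the low ranks in WT. TLR3, higher in every DKO1 sample, thus went from above 4.87% to above 1.56%. The lower rank of MAVS in DKO1 is therefore not a measure of a fall in its level. Single DKO1 samples did not rank the same way for all members. Replicate 3 was the highest for RIGI, DHX58, TLR3, STING1 and IFI16 and the lowest for CGAS. Among the DKO1 samples, replicate 3 also had the largest median-ratio size factor (1.18, against 1.03 and 0.962 for replicates 1 and 2). It had the most genes at 1 TPM or more (14419, against 13809 and 13327). The part of library scale in these ranks was not tested.

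The tested genes with a symbol that lay nearest to 3 members were found by the Euclidean distance between log2(TPM + 1) values over the 6 samples, which all genes share. For IFIH1 these were RIGI (distance 0.54), the circadian gene PER3 (0.57) and the zinc finger gene ZNF32 (0.74). For RIGI they were IFIH1 (0.54), PER3 (0.69) and the noncoding RNA ADGRD1-AS1 (0.72). Among the tested genes with a symbol, RIGI and IFIH1 were thus each other's nearest. PER3 went from 2.55 ± 0.386 to 21.4 ± 3.54 TPM. For STING1 the nearest were ZFHX3 (0.21), CBX8 (0.23) and NLRP11 (0.23). None of these was called in the deposited scaling, while ZFHX3 and NLRP11, like STING1, were called lower under quantile normalization.

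Other genes of the same pathways were taken from 7 lists written from textbook roles, 93 genes in all, of which 90 were matched in the table. Of these 61 were tested, 14 were called higher and 4 lower, with a median log2 fold change of 0.15. Over all tested genes 18.8% were higher and 9.6% lower, with a median of 0.07. Among 15 tested partners of the RIG-I-like receptors, 4 were higher and 2 lower, with a median of 0.20. DDX60, a helicase that aids RNA sensing, was at 1.54, 1.23 and 1.53 TPM in WT and at 3.44, 4.1 and 7.39 TPM in DKO1 (log2 fold change 1.24, limma adjusted p = 0.00918). ZC3HAV1 (ZAP), which binds CpG-rich viral RNA, rose from 21.5 ± 0.662 to 40.1 ± 1.93 TPM (adjusted p = 0.00107), and the kinase RIOK3 from 39 ± 4.71 to 71.5 ± 8.33 TPM (adjusted p = 0.00355). RNF135, a ubiquitin ligase of RIGI named here after its value was seen, rose from 3.01 ± 0.584 to 5.34 ± 0.775 TPM (adjusted p = 0.0299). The RNF135 call was lost without WT replicate 2 or 3 (0.121 and 0.105), without DKO1 replicate 1 or 3 (0.0921 and 0.0545) and under quantile normalization (0.196). The ligase TRIM25 was at 73.8 ± 5.43 and 88.3 ± 10.9 TPM and was not called.

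The partners called lower were DDX3X, a helicase that binds MAVS and has a closely similar copy, and the adaptor TRAF5. DDX3X was at 247.66, 261.17 and 265.14 TPM in WT and at 109.77, 140.76 and 205.09 TPM in DKO1 (log2 fold change −0.81, limma adjusted p = 0.0274). TRAF5 was at 20.6 ± 1.38 and 13 ± 2.7 TPM (log2 fold change −0.63, adjusted p = 0.0306). Both calls were lost when any 1 sample other than DKO1 replicate 3 was left out, with an adjusted p of 0.0565 to 0.0958 for DDX3X and of 0.0505 to 0.117 for TRAF5. In both genes DKO1 replicate 3 lay nearest to WT. The DDX3X call was also lost without the entry rule (adjusted p = 0.0541).

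Of the endosomal receptors and their adaptors 5 of 11 were tested and 1 was higher, MYD88, the adaptor of most toll-like receptors, from 11.3 ± 0.843 to 20.3 ± 1.85 TPM (log2 fold change 0.79, limma adjusted p = 0.00459). TLR7, TLR8 and TLR9 did not exceed 0.04 TPM in any sample. TICAM1, the adaptor of TLR3, was not tested, with 0.55 ± 0.121 TPM in WT against 0.683 ± 0.309 TPM in DKO1. Among 19 tested genes of cytosolic DNA handling and STING1 regulation, 4 were higher and 0 lower, with a median of 0.03. Over all tested genes 18.8% were called higher and 9.6% lower. The lysosomal nuclease DNASE2 rose from 3.62 ± 0.994 to 9.21 ± 2.24 TPM, the calcium sensor STIM1, which holds STING1 at the endoplasmic reticulum, from 4.05 ± 0.745 to 10.1 ± 3.53 TPM, and the ubiquitin ligase RNF5 from 20.8 ± 1.25 to 36 ± 4.33 TPM. The fourth was LRRC8A, a channel subunit named here after its value was seen, at 1.5 ± 0.346 and 3.06 ± 0.786 TPM. The STIM1 call was lost without WT replicate 1, 2 or 3 or DKO1 replicate 1 (adjusted p = 0.0541, 0.0713, 0.0506 and 0.0566), with a range of 0.00423 to 0.0713 over all alternatives. The LRRC8A call (adjusted p = 0.0384) was lost in 7 of 13 alternatives: without WT replicate 1, 2 or 3 (0.0613, 0.139 and 0.12), without DKO1 replicate 1 or 3 (0.116 and 0.0736), under quantile normalization (0.266) and without the entry rule (0.0833). The nuclease TREX1, which removes cytosolic DNA, stayed at or below 0.52 TPM in every sample.

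Downstream of both adaptors, 11 of 12 matched kinases and transcription factors were tested. Of these 0 were higher and 1 was lower, beside 18.8% and 9.6% of all tested genes. That gene was TANK, which binds TBK1, at 133.45, 132.63 and 122.42 TPM in WT and 40.91, 57.83 and 59.53 TPM in DKO1. TANK was 2.45-fold lower (log2 fold change −1.30, SE 0.16, limma adjusted p = 0.000827). TBK1 itself was at 62.56, 72.8 and 65.19 TPM in WT and at 25.08, 38.36 and 55.09 TPM in DKO1, without overlap, and did not pass (log2 fold change −0.81, adjusted p = 0.0536). With the replicate number as a block TBK1 was called lower (adjusted p = 0.0205), as it was with quantile normalization (0.0397), with median-ratio scaling (0.0135) and without DKO1 replicate 3 (0.00702), while the highest adjusted p over all alternatives was 0.15. IRF3 was at 11.17, 5.18 and 7 TPM in WT and at 11.22, 5.84 and 13.99 TPM in DKO1, with overlap, and was above the same-numbered WT sample each time (adjusted p = 0.498, and 0.225 with the block). IRF7 was not tested, at 0.03, 0 and 0.09 TPM in WT and 0.31, 0.06 and 0.6 TPM in DKO1. IRF1, a transcription factor induced by interferon and named here after its values were seen, was at 3.37, 1.79 and 2.66 TPM in WT and at 7.16, 2.9 and 7.44 TPM in DKO1. It was not called without the block (log2 fold change 0.86, SE 0.33, adjusted p = 0.0916) and was called higher with it (SE 0.19, adjusted p = 0.0141) or without DKO1 replicate 2 (0.0081). With the block this list therefore held 1 higher gene, IRF1, and 2 lower, TANK and TBK1. In the other lists the block added higher calls of TRADD (adjusted p = 0.0408 against 0.148), UNC93B1 (0.0426 against 0.228) and SAMHD1 (0.03 against 0.0624). TRADD was also called without DKO1 replicate 2 (0.0348), and SAMHD1 without DKO1 replicate 3 (0.0246) or without mitochondrial and spike-in rows (0.0421).

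**Figure D4:**
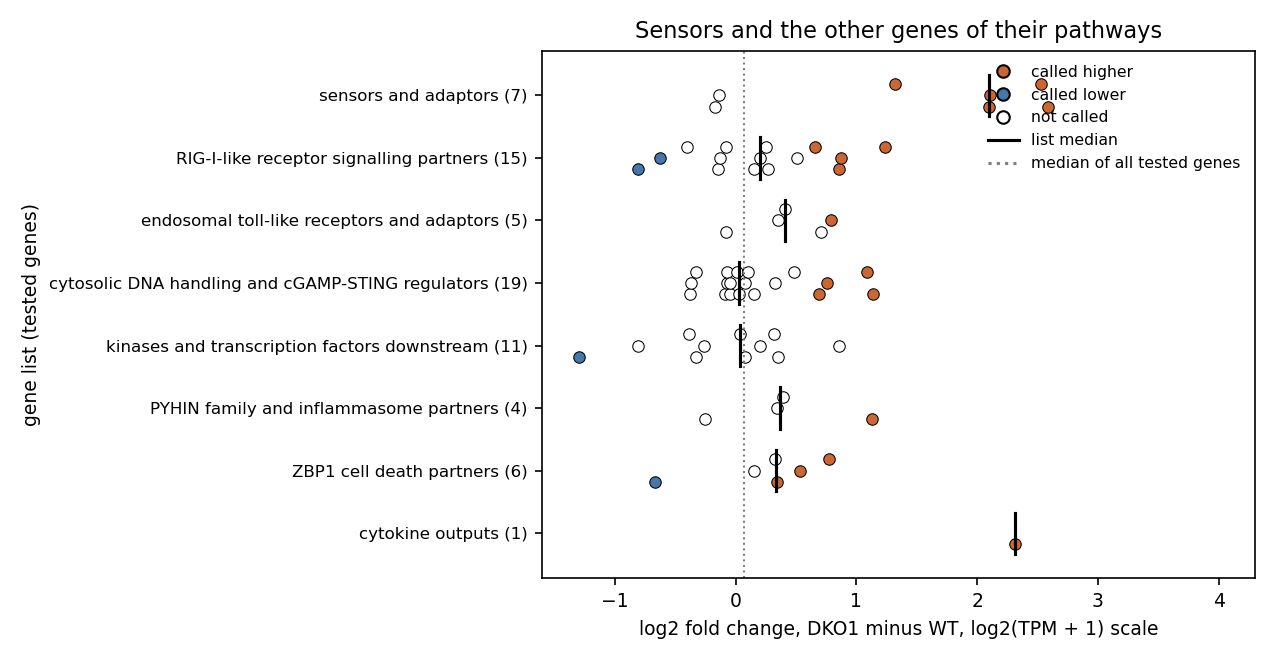
Log2 fold change (x axis, DKO1 minus WT on the log2(TPM + 1) scale) of the tested genes in the group of sensors and adaptors and in 7 lists of pathway partners (y axis, with the number tested). Each circle is a gene, orange where called higher, blue where called lower and white where not called, black bars are medians and the dotted line is the median of all tested genes. The bar of the sensors and adaptors, at 2.10, includes 3 genes that entered the test through their DKO1 values alone, and the 4 that passed in all samples lie at 2.53, 2.59, −0.17 and −0.14.

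Several effector genes that AIM2 and ZBP1 act through were listed at or near 0, while others on the same lists were expressed in both lines. The WT and DKO1 means were 34.7 and 44.2 TPM for CASP8, 47.6 and 60.1 TPM for CASP6 and 7.58 and 8.55 TPM for FADD. GSDMD was lower, at 1.68 ± 1.15 and 2.68 ± 1.91 TPM. CASP8, CASP6, FADD and GSDMD were not called in the main test. Of 11 inflammasome and PYHIN genes 4 were tested and 1 was higher, beside 18.8% of all tested genes. It was the cytokine gene IL18, which rose from 2.22 ± 0.748 to 5.93 ± 0.22 TPM (log2 fold change 1.13, limma adjusted p = 0.00447). PYCARD, the adaptor that AIM2 needs, was listed at 0 in 5 samples and at 0.11 TPM in DKO1 replicate 1. CASP1 was listed at 0 in WT and at 0.27, 0.22 and 0.15 TPM in DKO1, and IL1B at 0 in all samples. Of 7 genes of ZBP1 signalling 6 were tested, 3 higher and 1 lower, and over all tested genes 18.8% were higher and 9.6% lower. MLKL, the executioner of necroptosis, fell from 13.2 ± 0.439 to 7.95 ± 0.689 TPM (log2 fold change −0.67, adjusted p = 0.0102), a call lost without WT replicate 2 (0.0561) or 3 (0.052). RIPK3, the kinase that activates MLKL, was listed at 0 in WT and at 0.62, 0.23 and 0.87 TPM in DKO1.

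The 3 higher genes of that list were TRIM34, RIPK1 and ADAR. TRIM34, a relative of TRIM5, went from 0.37 ± 0.135 to 1.34 ± 0.203 TPM, and its call was lost under quantile normalization (limma adjusted p = 0.719). RIPK1 rose from 17.2 ± 0.671 to 25.4 ± 3.48 TPM (adjusted p = 0.0271), a call lost under median-ratio scaling (0.0686) and without any 1 of the WT replicates (0.0786, 0.11 and 0.0958 for 1, 2 and 3). ADAR, which edits double-stranded RNA and limits its detection by IFIH1 and ZBP1, was at 101 ± 3.16 and 128 ± 9.73 TPM. Its adjusted p was 0.0493, and the call was lost in 9 of 14 alternatives, at 0.0506 to 0.336, 5 of them leaving out a sample, each but DKO1 replicate 2.

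Cytokine genes at the end of these pathways were low in DKO1 and mostly listed at 0 in WT. CXCL10, a chemokine induced by interferon, was at 0, 0 and 0.03 TPM in WT and at 2.87, 3.58 and 6.09 TPM in DKO1 (log2 fold change 2.31, SE 0.23, limma adjusted p = 0.000293), and it was the single tested gene among the 10 matched. IFNB1, the gene of interferon beta, was listed at 0 in WT and at 0.53, 0.44 and 0.26 TPM in DKO1. Without the entry rule IFNB1 was called higher (adjusted p = 0.00763). IFNL1 was listed at 0 in WT and at 0.36, 0.16 and 0.1 TPM in DKO1, and it was not called in that fit (adjusted p = 0.0673). CXCL10, like TRIM34, entered the test through its DKO1 values alone.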

How the data were processed

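RNA was extracted with TRIzol and sequenced from a stranded mRNA library kit, per the labels' protocols. The authors deposited 1 table of TPM values (length-corrected transcript abundance scaled to a fixed total) per gene and sample, given to 2 decimals. The submitters' processing notes name edgeR 3.12.1, RSEM 1.2.21, STAR 2.5.3a, FastQC and Trim Galore 0.4.0, without roles. Neither the genome build nor the use of strand in counting is given in the sources used here. Of 57897 rows, 77 were spike-in rows and stayed out of the tests, and 52338 of the 57820 human rows were paired with a symbol. TPM keeps no depth, so precision rests on the spread between replicates.

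Genotype was tested with limma 3.58.1 in R 4.3.3 (variance trend on) on log2(TPM + 1) for genes that reached 1 TPM in 3 or more samples, with Benjamini-Hochberg adjustment over all 13604 such genes. Fold changes on this scale understate the change of low genes. The procedure was tested on simulated data, in which changes were placed only in genes with a higher WT level than any member. The simulated noise was independent between samples, without the shared deviation of same-numbered samples given below. That test therefore does not cover genes at the level of the members. An exact permutation test of 3 against 3 cannot give a p below 0.1 and was not used. The members and lists were chosen with earlier results of these data known. Named pathway genes were, per list, the called genes with the largest change and no overlap between the lines, up to 3 higher and 2 lower, plus TBK1, IRF3, IRF7, IFNB1 and CXCL10. Other pathway genes given with values (such as TRIM25, RNF135, LRRC8A, DDX43, IRF1, TRADD, UNC93B1, SAMHD1, TICAM1, TREX1, CASP1, RIPK3 and IFNL1) were chosen after their values were seen. Samples with the same replicate number deviated together from their group means over the tested genes (r = 0.350, 0.572 and 0.267 across genes, which are not independent), which is a property of the data and not stated in the labels, so a fit with the number as a block was an alternative. The others were another amount added before the logarithm, other entry rules, other scalings, no variance trend and leaving out each sample in turn.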

Additional observations from a re-analysis of the deposited data

How the results depend on the processing

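RIGI, IFIH1, DHX58 and IFI16 were called higher under every alternative that gave them a value, and the members called higher numbered 5 in each fit that left out a sample. Those fits kept the genes that had entered with all samples. DHX58, CGAS and IFI16 had entered through their DKO1 values alone, so their calls there were close to given by the entry rule. With a mean of at least 5 TPM required, 2 members (RIGI and IFIH1), 7 pathway genes and 1145 genes in all were called higher, since fewer genes entered. Without an entry rule 4400 genes were higher. Quantile normalization called 1 of the 7 tested members lower, STING1, and 8 of the 61 tested pathway genes, beside 1939 of all 13604 tested genes. Median-ratio scaling called 2094 genes lower. Leaving out 1 sample gave 1705 to 2842 genes higher and 524 to 2079 lower, and 9 to 16 pathway genes higher and 1 to 7 lower. The fewest higher calls came without WT replicate 3, and the most lower calls without DKO1 replicate 3 (2079). CBX8, at 0.03 on the log2 scale, changed sign with quantile normalization (−0.37), with median-ratio scaling (−0.07) and among fits without a sample (−0.05 to 0.11, with −0.02 without WT replicate 2), and it was never called. TRADD, at 0.51, was at −0.01 under quantile normalization. With 0.1 TPM added before the logarithm the differences of TLR3 and AIM2 were 1.70 and 2.03, against 0.65 and 0.43. The replicate block gave 3053 genes higher and 1817 lower, 5 members higher, and 18 pathway genes higher and 5 lower, and of the named genes it changed the calls of TBK1, IRF1, TRADD, UNC93B1 and SAMHD1 and no other. Apart from values that follow from fewer genes or samples, the cause was not tested. Levels near 0 are limited by rounding to 2 decimals and by a depth that TPM does not record.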
